A study of Mus musculus with 16 samples.

Results

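The cytochrome P450 genes of families 1 to 3 were taken as the protein-coding rows of the deposited liver table whose gene name begins with Cyp1, Cyp2 or Cyp3 followed by a subfamily letter. The rule found 61 genes of 25719, in 17 subfamilies. Family 1 had 3 genes, family 2 had 49 and family 3 had 9. A mean of at least 10 normalized counts over the 16 mice was reached by 41 of the 61, 20 lay below it, and 8 of those 20 had no read in any mouse.

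Cytochrome P450 enzymes are haem proteins of the endoplasmic reticulum that take electrons from Por, the cytochrome P450 reductase, and insert oxygen into their substrates. The enzymes of families 1 to 3 oxidise drugs and foreign chemicals, and several also act on steroid hormones, retinoids, bile acids, vitamin D and fatty acids. In liver their transcripts are made mainly in hepatocytes. Many are switched on by ligand-sensing receptors such as AHR, CAR (Nr1i3) and PXR (Nr1i2), and some differ between the sexes through the rhythm of growth hormone.

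The libraries came from whole livers of male mice, 8 to 12 weeks old, that were given a normal chow diet (NCD) or a steatosis-steatohepatitis diet (SSD) rich in animal fat, fructose and cholesterol for 3 weeks. WT mice were of strain C57BL6J. The other mice carry the labels strain NKG2D and genotype Klrk1 KO, and are written Klrk1-/- here; they lack the activating receptor NKG2D in every cell that would carry it. Whether the genotypes were littermates is not given in the labels, so genotype and breeding line cannot be told apart. The p-values measure the spread between these mice. There were 4 WT mice on NCD, 5 WT mice on SSD, 4 Klrk1-/- mice on NCD and 3 Klrk1-/- mice on SSD. The design asks how the diet changes the liver in each genotype and whether the genotypes differ on each diet.

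Reads on genes numbered 19892025 to 28936707 per mouse. Klrk1 itself lay between 20.1 and 71.1 normalized counts in the 9 WT mice and between 0.966 and 8.71 in the 7 Klrk1-/- mice, as their labels say. The summed level of 8 hepatocyte markers was 2367125 to 2668735 normalized counts in NCD-fed WT mice and 1525361 to 1910135 in SSD-fed WT mice, and 2261133 to 2956549 against 2012475 to 2173718 in Klrk1-/- mice. All 8 hepatocyte markers were detected in every group. The exact two-sided permutation test can go no lower than 0.0159 for the diets in WT mice, 0.0571 for the diets in Klrk1-/- mice, 0.0357 for the genotypes on SSD and 0.0286 for the genotypes on NCD, so genes are judged by limma. In whole-liver RNA, fewer cells of a type and less RNA per cell cannot be told apart. SSD-fed WT mouse 1 stood apart: its 7 stellate cell and fibroblast markers summed to 21560 normalized counts against 2799 to 7386 in the other 4 SSD-fed WT mice, its 8 macrophage markers to 13114 against 6194 to 10851, and its hepatocyte sum was the lowest. That mouse was the lowest of its group for 22 of the 41 P450 genes tested and the highest for 8, against 28.3% and 32.5% of all genes. Values without it are given below where leaving it out ended or made a pass or a call, or moved the fold of a changed gene by over 1.5 times.

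Before any diet difference is read, the levels give an order of the hepatic P450 transcripts, by the deposited gene lengths. Some of these lengths are shorter than the coding sequence of the gene. They are 939 against 1515 bases for Cyp2d9, 957 against 1485 for Cyp2a5 and 1233 against 1542 for Cyp1a2. The order and the shares per kb rest on these lengths and could differ with others. Per kb of gene model, Cyp2e1, the enzyme of ethanol and small solvents, was highest in NCD-fed WT mice at 70618 ± 5071 normalized counts per kb (SD, n = 4), which was 20.1% of the sum over all 61 genes. Cyp3a11, the main drug-oxidising enzyme of the PXR response, followed at 49076 ± 25349 per kb, Cyp2d9, a male-predominant testosterone 16-alpha-hydroxylase, at 48092 ± 4159, and Cyp2f2, an enzyme of naphthalene oxidation that marks periportal hepatocytes, at 41803 ± 3368 per kb. From Cyp2e1 to Cyp2f2, the mice of each gene overlapped those of the next. Cyp2d10, Cyp2d26, Cyp2c70, Cyp1a2, Cyp3a25 and Cyp2c50 completed the 10 highest, from 23540 down to 8004 normalized counts per kb. The 4 highest genes held 59.6% of the summed level per kb and the 10 highest 86.7% in NCD-fed WT mice. In the other groups the 4 highest of each group held 60.4% (WT, SSD), 57.7% (Klrk1-/-, NCD) and 61.5% (Klrk1-/-, SSD).

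**Figure D1:**
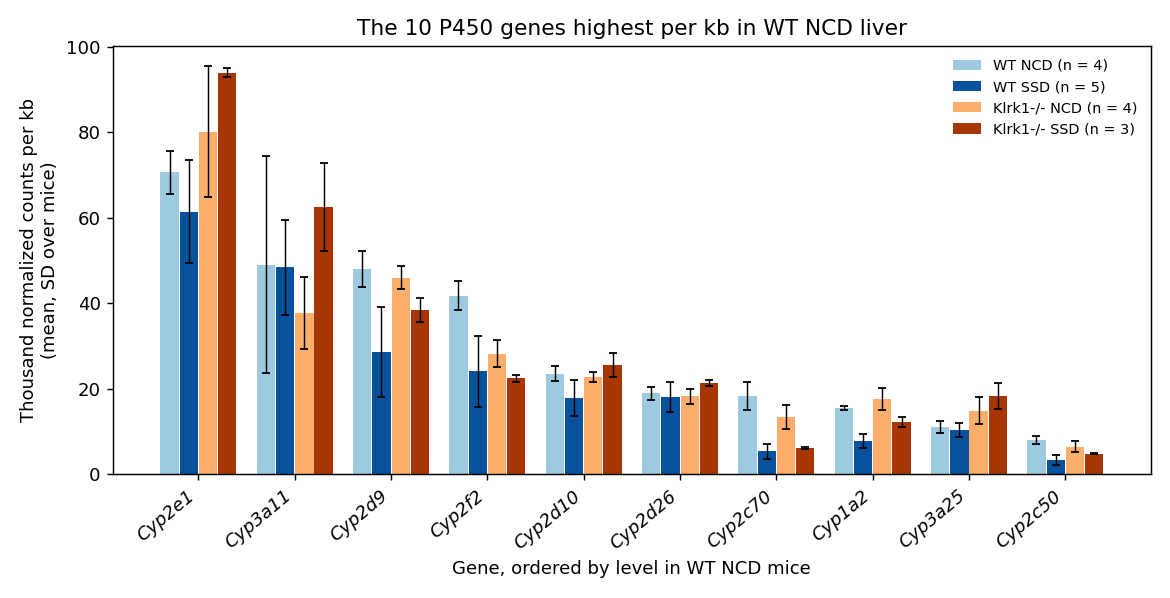
Bars give the mean level per kb of the 10 P450 genes that were highest in NCD-fed WT liver, in units of 1000 normalized counts per kb, and error bars the SD over the mice of each group. Per kb of deposited length Cyp2e1 leads in all 4 groups, and the bars of Cyp2c70 and Cyp2c50 are lower on SSD in both genotypes.

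The order of the leading genes per kb shifted on SSD. Per kb of deposited length Cyp2e1 stayed first in every group, at 61390 ± 12040 normalized counts per kb (SD, n = 5) in SSD-fed WT mice and 93892 ± 1033 (SD, n = 3) in SSD-fed Klrk1-/- mice. Undivided by length, its mean was below that of Cyp3a11 in NCD-fed WT mice (88201 against 126272) and SSD-fed WT mice (76676 against 124643). The same held in SSD-fed Klrk1-/- mice (117272 against 161026). The mean of Cyp2e1 was above that of Cyp3a11 in NCD-fed Klrk1-/- mice (100093 against 96989). Cyp2a5, a coumarin 7-hydroxylase, entered the 10 highest per kb on SSD in both genotypes, at rank 8. Undivided by length, its mean in SSD-fed WT mice (8594) was below those of Cyp2a12 (16839), Cyp2c29 (10130) and Cyp1a2 (9627). In SSD-fed Klrk1-/- mice its mean (14444) was below those of Cyp2a12 (15506) and Cyp1a2 (15044) and above that of Cyp2c29 (10446). Cyp2c50 was rank 10 in NCD-fed WT mice and rank 11 in NCD-fed Klrk1-/- mice, and was outside the 10 highest on SSD. Cyp2c70, which makes muricholic acids from chenodeoxycholic acid, went from rank 7 to rank 11 in WT mice and from rank 9 to rank 10 in Klrk1-/- mice.

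A gene was called when limma gave an adjusted p (Benjamini-Hochberg over all genes tested) under 0.05 and a change of more than 2-fold; it is said to have changed, risen or fallen when the adjusted p alone was under 0.05. Genes were tested in a comparison when their mean over its mice was at least 10 normalized counts, and fold changes are on the log2(normalized count + 1) scale, which understates the change of genes near 0. Relative to the median gene, SSD in WT mice was followed by a lower level of more P450 genes than a higher one. Of 41 tested, 14 were called, or 34.1%, against 9.01% of all 13091 genes. Among these 14, 5 were higher (6.11% of all genes were) and 9 were lower (2.9% of all genes were). By the adjusted p alone 23 changed (34.9% of all genes did), of which 6 rose (17.3% of all genes did) and 17 fell (17.6% of all genes did). The 41 had a median difference of -0.33 on the log2 scale, beside -0.002 over all genes. The NCD-fed and SSD-fed WT mice did not overlap for 19 of the 41, against 29% of all genes. Without SSD-fed WT mouse 1, 12 were called, 7 rose and 15 fell. Scaling every library to the same total shifted the median gene by 0.34 on the log2 scale, and on that scale 7 called genes were higher and 6 lower. By the adjusted p alone 10 were then higher and 11 lower, and 6 and 11 under quantile normalization. Under either of these scalings 8 of the 41 changed sign in WT mice, 1 of which, Cyp2c68, had passed the adjusted p. Of the 23 that changed, 16 passed under both of these scalings; Cyp2c67, Cyp2c68, Cyp2d9, Cyp2d22, Cyp2f2 and Cyp2j5 passed under neither, and Cyp1a1 did not under quantile normalization.

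In Klrk1-/- mice 10 of 41 P450 genes were called between the diets, or 24.4%, against 5.46% of all 12904 genes. Of these, 4 were higher (2.53% of all genes were) and 6 were lower (2.92% of all genes were), and by the adjusted p alone 8 rose (13.4% of all genes did) and 17 fell (16% of all genes did). The diets did not overlap for 24 of the 41, against 37.6% of all genes. Their median was -0.17 on the log2 scale, beside -0.002 over all genes. Scaling to the same total shifted the median gene by 0.25 and gave 7 called genes higher and 3 lower, and quantile normalization 7 higher and 6 lower. By the adjusted p alone 16 were higher and 10 lower when scaled to the same total, and 13 and 14 under quantile normalization. Of the 25 that changed, 18 passed under both scalings; Cyp2c50, Cyp2f2 and Cyp2j5 passed under neither, and Cyp1a2, Cyp2c68, Cyp2d11 and Cyp2d22 did not when scaled to the same total. Changes named below are relative to the median gene.

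Between genotypes fewer P450 genes differed. On SSD 1 of 38 was called, or 2.63%, against 1.15% of all 13116 genes. That gene, Cyp3a59, was higher in Klrk1-/- mice, and by the adjusted p alone 3 were higher (1.22% of all genes were) and none lower (1.68% of all genes were). Without SSD-fed WT mouse 1, 5 were higher, with Cyp1a2 and Cyp2j9 added, and none lower. Cyp3a59 passed neither when scaled to the same total nor under quantile normalization, and Cyp2a5 did not under the latter. At an unadjusted p under 0.05 there were 11 of 38, against 22.9% of all genes. On SSD 27 of the 38 had a log2 difference above 0, against 49.8% of all genes, with a median of 0.21; scaling to the same total moved the median of all genes by -0.115 there. On NCD 3 of 40 were called, against 1.7% of all 12845 genes, and all 3 (Cyp2a4, Cyp2a22 and Cyp1a1) were higher in Klrk1-/- mice (0.849% of all genes were), while none was called lower (0.856% of all genes were). On NCD 23 of the 40 had a log2 difference above 0, against 50.3% of all genes. By the adjusted p alone 6 were higher on NCD (6.41% of all genes were) and 2 lower (6.66% of all genes were). The diet by genotype interaction called 1 of 41, Cyp2a22, against 0.536% of all 13068 genes, with a negative sign (0.559% of all genes passed the adjusted p with that sign). Its value was above 0 for 22 of the 41, against 50.1% of all genes. Both diet comparisons and both genotype comparisons share groups of mice with each other, so their values stand side by side here and are not tested against each other except through the interaction.

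**Figure D2:**
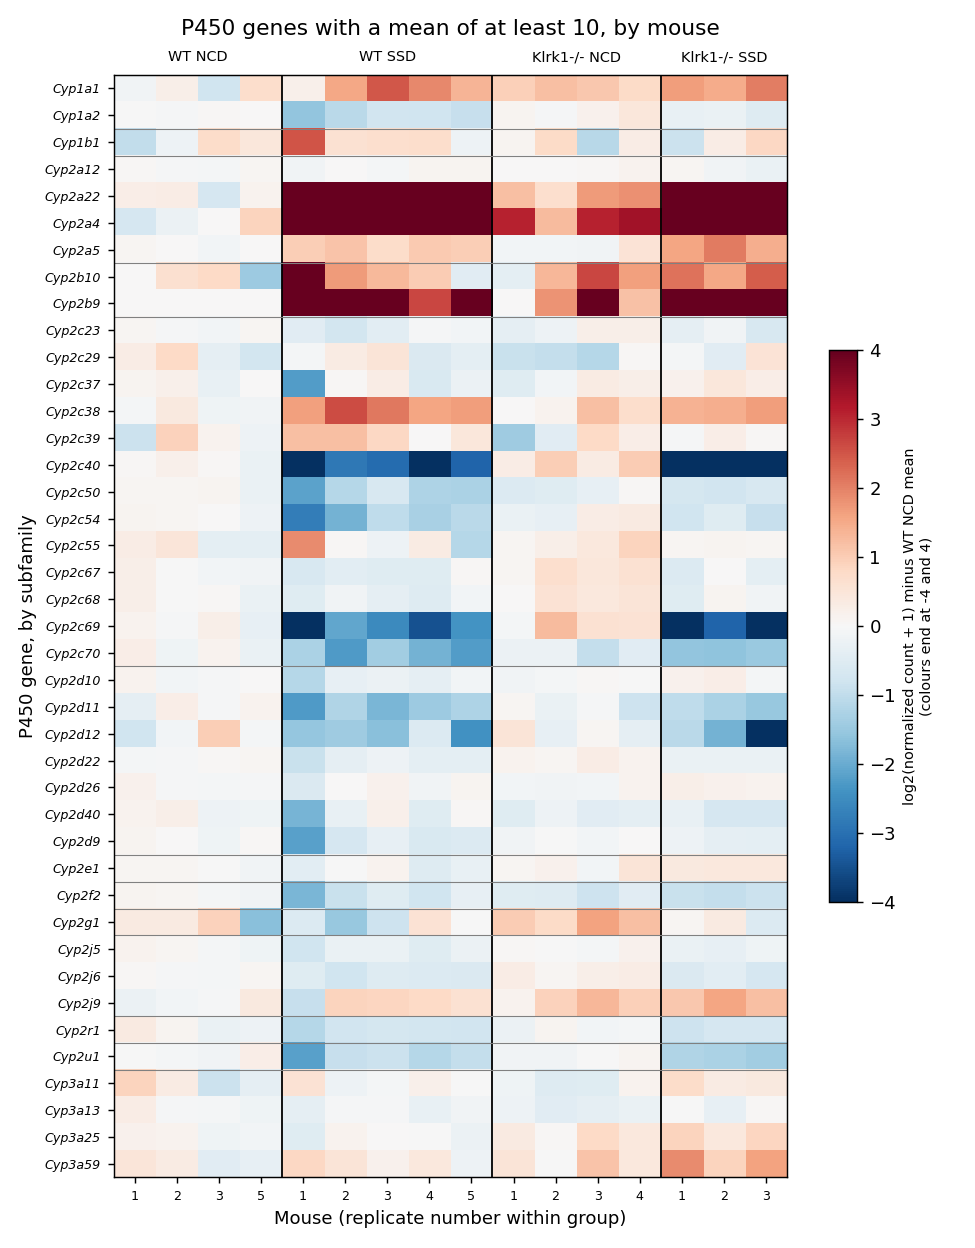
Each cell is one mouse (columns, by group and replicate number) and one of the 41 P450 genes with a mean of at least 10 (rows, by subfamily). Colour is log2(normalized count + 1) minus the mean of the NCD-fed WT mice: Cyp2a4, Cyp2a22 and Cyp2b9 are higher and Cyp2c40 and Cyp2c69 lower in the SSD-fed mice of both genotypes.

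In WT mice Cyp2a4 and Cyp2a22 on chromosome 7 had the largest log2 rises of the P450 genes tested (6.22 and 5.38), and in Klrk1-/- mice Cyp2b9 and Cyp2a4 had (4.75 and 4.59). Cyp2a4, a female-predominant testosterone 15-alpha-hydroxylase, was close to silent in NCD-fed WT mice at 1.21, 2.01, 2.61 and 5.52 normalized counts and stood at 412, 471, 106, 187 and 321 in SSD-fed WT mice. In Klrk1-/- mice it was 28.7, 7.47, 28.6 and 35.7 on NCD and 427, 728 and 531 on SSD. All SSD-fed mice lay above all NCD-fed mice, and all 4 NCD-fed Klrk1-/- mice above the 4 NCD-fed WT mice. The diet log2 fold change was 6.22 (SE 0.44, adjusted p = 1.46e-06) in WT and 4.59 (SE 0.41, adjusted p = 1.15e-05) in Klrk1-/- mice. On NCD the log2 difference of Klrk1-/- from WT mice was 2.69 (SE 0.53, adjusted p = 0.00813), and the call held without each of the 8 mice in turn. Its difference on SSD was 1.06 (SE 0.43, adjusted p = 0.182), and its interaction was -1.63 (SE 0.69, adjusted p = 0.237).

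Cyp2a22, an enzyme without a well-described substrate, rose in the same way. WT mice had 10.8, 11.1, 5.21 and 9.93 normalized counts on NCD and 654, 700.4, 324, 324 and 249.8 on SSD. Klrk1-/- mice had 21.8, 14.9, 31.1 and 34.4 on NCD and 284, 155 and 249 on SSD. The diets were apart in both genotypes, and on NCD every Klrk1-/- mouse was above every WT mouse, while on SSD the genotypes overlapped. The diet difference was 5.38 (SE 0.32, adjusted p = 3.84e-07) in WT and 3.14 (SE 0.29, adjusted p = 1.32e-05) in Klrk1-/- mice, and the NCD genotype difference was 1.35 (SE 0.35, adjusted p = 0.0278). Its interaction was -2.25 (SE 0.49, adjusted p = 0.0351): the diet difference was smaller in Klrk1-/- mice. That call held in 6 of 16 fits that left out 1 mouse (without NCD-fed WT mouse 2 or 5, SSD-fed WT mouse 1, 3 or 5, or NCD-fed Klrk1-/- mouse 2), with values from -2.47 to -1.99 over the 16, and it was lost under edgeR on recovered reads. The NCD genotype call was lost without NCD-fed WT mouse 3 (1.13) and without NCD-fed Klrk1-/- mouse 3 (1.24) or 4 (1.19).

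Cyp2a5, the coumarin hydroxylase, started from a high level. It lay at 4556, 4347, 4055 and 4419 normalized counts in NCD-fed and 8573, 9668, 7148, 8971 and 8612 in SSD-fed WT mice, and at 4055, 3993, 3921 and 6352 in NCD-fed and 12993, 18428 and 11911 in SSD-fed Klrk1-/- mice. All 3 SSD-fed Klrk1-/- mice were above the 5 SSD-fed WT mice. It rose by 0.98 (SE 0.10, adjusted p = 2.09e-05) in WT mice, just under 2-fold, and by 1.66 (SE 0.18, adjusted p = 5.08e-05) in Klrk1-/- mice on the log2 scale. On SSD the genotypes differed by 0.73 (SE 0.15, adjusted p = 0.033). The interaction, 0.68 (SE 0.22, adjusted p = 0.131), did not pass. Cyp2a12, a steroid hydroxylase, stayed between 13865 and 18472 normalized counts in all 16 mice and passed no test.

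Cyp2a4 and Cyp2a5 differ at 23 of 1485 coding bases (98.5% identity) and Cyp2a22 and Cyp2a12 at 45 of 1479 (97.0%), so single reads of 100 bases could be assigned to the wrong copy. For Cyp2a4, 11.2% of the 100-base windows of its canonical transcript occur unchanged in another gene, and for Cyp2a22 6.3%. The following 90 coding bases show how few letters separate the first pair. They lie in exon 4 of 9 of both genes, at chr7:26008395-26008484 for Cyp2a4 and chr7:26536558-26536647 for Cyp2a5 (GRCm39, plus strand), and capitals mark the bases that differ.
Cyp2a4: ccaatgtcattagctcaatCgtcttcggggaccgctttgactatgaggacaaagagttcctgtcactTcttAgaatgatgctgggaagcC
Cyp2a5: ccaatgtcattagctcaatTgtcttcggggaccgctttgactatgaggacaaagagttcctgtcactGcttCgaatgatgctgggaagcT
The ratio between the copies was not level across the groups. Cyp2a4 was 0.0265% to 0.125% of Cyp2a5 in NCD-fed WT mice, 1.48% to 4.88% in SSD-fed WT mice, 0.187% to 0.729% in NCD-fed Klrk1-/- mice and 3.29% to 4.46% in SSD-fed Klrk1-/- mice. Cyp2a22 was 0.0329% to 0.0685% of Cyp2a12 in NCD-fed WT mice and 1.39% to 4.33% in SSD-fed WT mice.

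The promoters of Cyp2a4 and Cyp2a5 are nearly as alike as their coding bases: 294 of 299 aligned bases were identical in windows of 300 bases. RefSeq promoters (GRCm38.p6) were found for 53 of the 61 genes, in 56 windows that run from 250 bases before to 50 after a start. They were searched on both strands for TATAAA (the TATA box), GCGTG (the core of the AHR element), AGGTCA (a nuclear receptor half-site) and TTCNNNGAA (the STAT5 element), none of which contains another. TATAAA was in 28 of the 56 windows, against 13.6% of all 32851 promoters. AGGTCA was in 19 (16.3% of all), GCGTG in 11 (32.4% of all) and TTCNNNGAA in 2 (8.3% of all). Of the 250 bases before the start, the same pair is printed because its diet responses differ in size, from chr7:26306942-26307191 for Cyp2a4 and chr7:26835089-26835338 for Cyp2a5 (GRCm38.p6, plus strand), with matches to any of the 4 motifs in capitals.
Cyp2a4: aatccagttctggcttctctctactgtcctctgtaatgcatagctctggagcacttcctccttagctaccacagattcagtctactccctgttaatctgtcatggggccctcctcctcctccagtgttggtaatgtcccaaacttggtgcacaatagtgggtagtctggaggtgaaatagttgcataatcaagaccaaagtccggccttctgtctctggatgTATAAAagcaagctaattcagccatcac
Cyp2a5: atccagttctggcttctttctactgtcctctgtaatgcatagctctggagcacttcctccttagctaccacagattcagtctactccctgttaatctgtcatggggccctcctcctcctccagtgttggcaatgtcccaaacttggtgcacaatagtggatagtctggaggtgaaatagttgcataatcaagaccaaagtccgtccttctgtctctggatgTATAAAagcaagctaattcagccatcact
In each of these stretches the only match is a TATAAA near the start, and in both full windows an AGGTCA match on the other strand lies after the start.

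**Figure D3:**
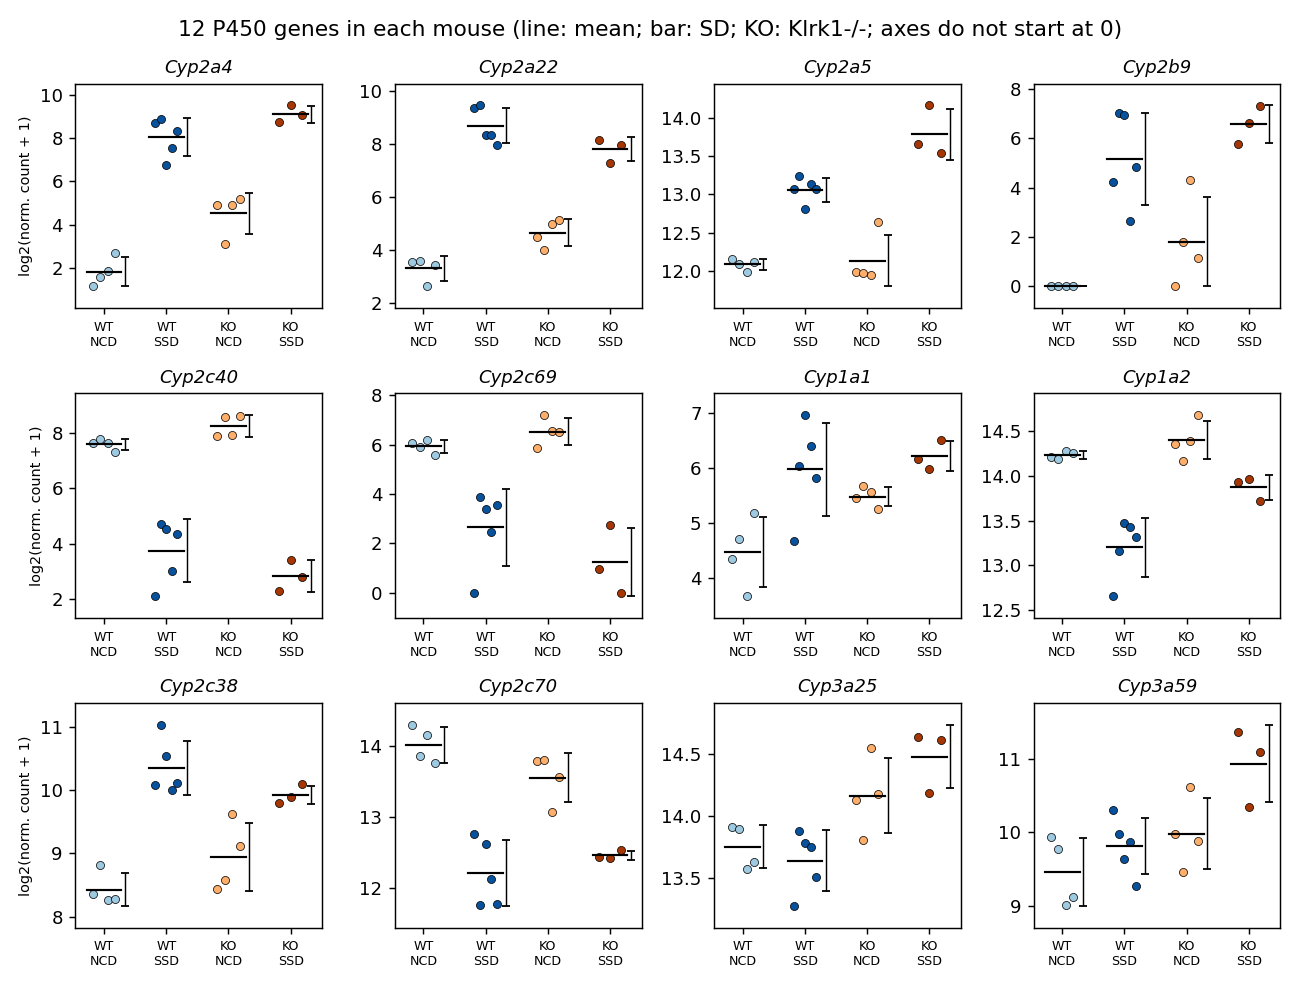
Points are single mice, lines group means and bars the SD of log2(normalized count + 1) for 12 P450 genes in the 4 groups. Cyp2a4, Cyp2a22, Cyp2a5 and Cyp2b9 are higher and Cyp2c40, Cyp2c69 and Cyp2c70 lower in the SSD-fed mice of both genotypes, and Cyp3a25 and Cyp3a59 differ between the genotypes on SSD.

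The Cyp2b genes include Cyp2b10, the classical target of CAR, and 2 of the 5 passed the filter. Cyp2b9, which is female-predominant, had no read in any of the 4 NCD-fed WT mice and 17.9, 131, 124, 5.33 and 27.8 normalized counts in the 5 SSD-fed ones. Against a floor of 3 reads per library it was at least 17.65-fold higher on SSD. It had 0, 2.49, 18.6 and 1.23 on NCD and 54.1, 96.4 and 159 on SSD in Klrk1-/- mice. Every SSD-fed mouse lay above the NCD-fed mice of its genotype, with a wide spread among them. The fitted log2 fold changes, which depend on the added count of 1, were 5.15 (SE 0.81, adjusted p = 0.000604) in WT and 4.75 (SE 0.80, adjusted p = 0.0011) in Klrk1-/- mice.

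Cyp2b10, the usual readout of CAR activity, did not pass in either genotype under limma: it had 4.82, 8.05, 9.12 and 1.10 normalized counts in NCD-fed and 104, 17.7, 13.3, 10.7 and 3.27 in SSD-fed WT mice, with a log2 difference of 1.55 (SE 0.79, adjusted p = 0.147). The highest of these was SSD-fed mouse 1, whose stellate and macrophage marker sums were also the highest, and what they had to do with it was not tested. DESeq2 on recovered reads called it in WT mice, as did limma without SSD-fed mouse 5, and without mouse 1 it was below the filter. Its log2 difference in Klrk1-/- mice was 0.73 (SE 0.57, adjusted p = 0.366). Cyp2b13, the near copy of Cyp2b9 (92.7% of coding bases), reached at most 5.71 normalized counts in any mouse, and Cyp2b19 and Cyp2b23 had no read.

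Cyp1a1 and Cyp1a2, both AHR targets and neighbours on chromosome 9, went opposite ways. Cyp1a2, the constitutive caffeine-oxidising enzyme of the pericentral zone, fell. It stood at 18994, 18627, 19902 and 19573 normalized counts in NCD-fed WT mice and 6451, 9136, 11360, 11015 and 10173 in SSD-fed WT mice. Klrk1-/- mice had 20946, 18463, 21506 and 26248 on NCD and 15652, 16014 and 13466 on SSD. Neither genotype had an overlap between diets, and all 3 SSD-fed Klrk1-/- mice were above all 5 SSD-fed WT mice. The diet difference was -1.03 (SE 0.15, adjusted p = 0.000348) in WT mice (-0.89 and no longer called without SSD-fed mouse 1) and -0.53 (SE 0.12, adjusted p = 0.00687) in Klrk1-/- mice, and on SSD the genotype difference of 0.67 (SE 0.17, adjusted p = 0.0679) did not pass. Without SSD-fed mouse 1 the last was 0.53, with an adjusted p of 0.015 by limma. The WT diet difference was -0.683 scaled to the same total and -0.675 under quantile normalization, where it passed the adjusted p but was not called. DESeq2 on recovered reads did not call it either.

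Cyp1a1, which is nearly silent in liver without an AHR ligand, had 19.3, 25.2, 11.7 and 35.3 normalized counts in NCD-fed and 24.6, 64.2, 123, 82.6 and 55.5 in SSD-fed WT mice. The lowest SSD value was that of mouse 1, which overlapped the NCD-fed mice. Klrk1-/- mice had 42.5, 49.8, 46.0 and 36.9 on NCD and 70.5, 61.8 and 90 on SSD. The diet difference was 1.496 (SE 0.42, adjusted p = 0.0168) in WT mice (1.82 without SSD-fed mouse 1) and 0.74 (SE 0.19, adjusted p = 0.013) in Klrk1-/- mice. Without NCD-fed WT mouse 3 the diet call in WT mice was lost (1.23, adjusted p = 0.0539 by limma). Its NCD genotype difference was 1.001 (SE 0.29, adjusted p = 0.0424), at the edge of both limits, and of 8 fits that left out a mouse the call held in 1, without NCD-fed WT mouse 5, with values from 0.73 to 1.24 over the 8. Cyp1b1, the remaining family 1 gene, had 119, 31.3, 32.4, 32.9 and 17.1 normalized counts in SSD-fed WT mice. Its highest value was in mouse 1, where the stellate cell sum was highest too. It passed no test, and the part of those cells was not tested.

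The starts of the 2 genes face away from each other on chromosome 9, and the 250 bases before each are printed because the genes diverged. They lie at chr9:57697363-57697612 (plus strand) and chr9:57683656-57683905 (minus strand) of GRCm38.p6 in the RefSeq table, with the 4 motifs in capitals.
Cyp1a1: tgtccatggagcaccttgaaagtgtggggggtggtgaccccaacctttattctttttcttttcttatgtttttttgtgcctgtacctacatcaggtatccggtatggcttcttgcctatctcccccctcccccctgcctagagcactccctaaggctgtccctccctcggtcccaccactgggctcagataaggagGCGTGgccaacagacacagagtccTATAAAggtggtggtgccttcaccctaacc
Cyp1a2: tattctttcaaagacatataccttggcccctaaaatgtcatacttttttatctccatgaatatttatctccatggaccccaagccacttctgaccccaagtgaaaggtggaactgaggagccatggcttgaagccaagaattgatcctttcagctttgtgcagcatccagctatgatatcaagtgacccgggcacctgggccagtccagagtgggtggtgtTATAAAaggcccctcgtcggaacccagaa
Both hold TATAAA, and within these windows GCGTG is in that of Cyp1a1 and not in that of Cyp1a2, which says only that these letters are absent from this stretch. The coding sequences share 76.9% of bases and 1.2% and 2.0% of their 100-base windows.

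The Cyp2c genes oxidise arachidonic acid, retinoids, bile acids and many drugs. All 15 lie on chromosome 19, and 13 were tested. In WT mice 7 fell, Cyp2c38 rose and 5 did not pass; the same counts held in Klrk1-/- mice. Of all genes 17.6% fell and 17.3% rose in WT mice and 16% and 13.4% in Klrk1-/- mice, which is the background of the other subfamily counts too. Their median on the log2 scale was -0.396 in WT mice and -0.385 in Klrk1-/- mice.

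Cyp2c40 and Cyp2c69, which are female-predominant, fell most of all P450 genes tested. Cyp2c40 had 195, 220.5, 196 and 157 normalized counts in NCD-fed and 3.32, 25.4, 21.9, 7.11 and 19.6 in SSD-fed WT mice, and 234, 378, 239 and 384 on NCD and 3.86, 9.64 and 6 on SSD in Klrk1-/- mice. Cyp2c69 had 66.3, 58.4, 71.7 and 47.5 on NCD and 0, 13.5, 9.52, 4.44 and 10.6 on SSD in WT mice, and 57.4, 146, 92.0 and 89.8 on NCD and 0.966, 5.62 and 0 on SSD in Klrk1-/- mice. No SSD-fed mouse reached any NCD-fed mouse for either gene. Cyp2c40 changed by -3.84 (SE 0.47, adjusted p = 0.000101) in WT and -5.40 (SE 0.28, adjusted p = 1.33e-07) in Klrk1-/- mice. Cyp2c69 changed by -3.29 (SE 0.65, adjusted p = 0.00274) in WT mice (-2.63 without SSD-fed mouse 1) and -5.29 (SE 0.55, adjusted p = 3.22e-05) in Klrk1-/- mice. On NCD Cyp2c40 was higher in Klrk1-/- mice, by 0.65 (SE 0.18, adjusted p = 0.0324). This passed the adjusted p in 13 of 21 fits, the main one and its alternatives together. The interactions, -1.57 (SE 0.64, adjusted p = 0.223) for Cyp2c40 and -2.003 (SE 0.97, adjusted p = 0.299) for Cyp2c69, did not pass under limma. DESeq2 on recovered reads called that of Cyp2c40.

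Cyp2c40, Cyp2c67, Cyp2c68 and Cyp2c69 are near copies, and 29.1%, 23.6%, 19.2% and 36.3% of their 100-base windows also occur in another gene. Cyp2c40 and Cyp2c69 differ at 31 of 1476 coding bases (97.9% identity). The 90 bases below, from exon 7 of 9 at chr19:39766411-39766500 and chr19:39839526-39839615 (GRCm39, minus strand), hold 8 of these, in capitals.
Cyp2c40: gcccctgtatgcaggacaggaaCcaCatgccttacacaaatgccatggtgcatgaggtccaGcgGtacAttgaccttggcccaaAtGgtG
Cyp2c69: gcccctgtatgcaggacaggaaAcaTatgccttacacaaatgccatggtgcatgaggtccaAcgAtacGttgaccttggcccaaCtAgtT
The copies with more reads had smaller log2 differences. Cyp2c67 lay between 3479 and 8570 normalized counts and changed by -0.40 (SE 0.14, adjusted p = 0.0385) in WT and -0.76 (SE 0.16, adjusted p = 0.00383) in Klrk1-/- mice; Cyp2c68 changed by -0.33 (SE 0.12, adjusted p = 0.0473) and -0.56 (SE 0.15, adjusted p = 0.0185). The diets overlapped in WT mice for both genes. Scaled to the same total, Cyp2c67 was -0.051 in WT mice (adjusted p = 0.734 by limma). Without SSD-fed WT mouse 1 the adjusted p in WT mice was 0.0634 for Cyp2c67 and 0.0784 for Cyp2c68. Cyp2c40 was 3.05% to 4.14% of Cyp2c67 in NCD-fed and 0.0955% to 0.636% in SSD-fed WT mice. Cyp2c67 was also higher in Klrk1-/- mice on NCD, by 0.45 (SE 0.13, adjusted p = 0.0397), which passed in 12 of 21 fits.

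The promoter windows of Cyp2c40 and Cyp2c69 align over 270 of 300 bases, with 267 identical. The 250 bases before each annotated start are shown from chr19:39812815-39813064 and chr19:39886770-39887019 (GRCm38.p6, minus strand), because both genes fell together. The annotated starts lie at different places of the shared sequence, and neither stretch holds any of the 4 motifs. Both full windows hold a TATAAA, which lies after the annotated start.
Cyp2c40: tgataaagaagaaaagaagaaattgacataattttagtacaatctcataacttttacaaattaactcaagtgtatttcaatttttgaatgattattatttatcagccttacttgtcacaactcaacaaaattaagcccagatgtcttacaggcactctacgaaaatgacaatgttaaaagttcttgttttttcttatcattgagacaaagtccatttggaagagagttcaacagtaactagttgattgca
Cyp2c69: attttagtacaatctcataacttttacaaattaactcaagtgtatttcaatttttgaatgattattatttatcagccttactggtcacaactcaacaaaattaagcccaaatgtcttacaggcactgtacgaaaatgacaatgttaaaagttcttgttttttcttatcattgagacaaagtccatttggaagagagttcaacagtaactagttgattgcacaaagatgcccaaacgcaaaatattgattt

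Among the abundant Cyp2c genes, Cyp2c70, Cyp2c50 and Cyp2c54 fell. Cyp2c70, which turns chenodeoxycholic acid into muricholic acid in rodents, had 20012, 14748, 18215 and 13825 normalized counts in NCD-fed and 6932, 3461, 6264, 4462 and 3497 in SSD-fed WT mice, and 14084, 14170, 8575 and 12026 on NCD and 5493, 5467 and 5900 on SSD in Klrk1-/- mice. The diets were apart in both genotypes, with differences of -1.81 (SE 0.21, adjusted p = 7.45e-05) and -1.09 (SE 0.15, adjusted p = 0.00029). In Klrk1-/- mice Cyp2c70 was no longer called when scaled to the same total or under quantile normalization, but still passed the adjusted p. Cyp2c50, a linoleic and arachidonic acid epoxygenase, had 14837, 14849, 15037 and 11623 on NCD and 3208, 6420, 8974, 5918 and 5771 on SSD in WT mice, a difference of -1.28 (SE 0.23, adjusted p = 0.00132), and changed by -0.39 (SE 0.13, adjusted p = 0.0398) in Klrk1-/- mice. Scaled to the same total it was -0.94 and no longer over 2-fold in WT mice, and -0.13 in Klrk1-/- mice (adjusted p = 0.384 by limma); quantile normalization ended the same call and the same pass. Cyp2c54, another fatty acid epoxygenase, changed by -1.61 (SE 0.29, adjusted p = 0.00161) and -0.75 (SE 0.17, adjusted p = 0.00611), from 4218 to 5280 normalized counts in NCD-fed WT mice to 717 to 2397 in SSD-fed ones. The interactions of Cyp2c70 (0.237), Cyp2c50 (0.153) and Cyp2c54 (0.288), given as adjusted p by limma, did not pass.

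Cyp2c38 went against its subfamily. It had 326, 449, 308 and 309 normalized counts in NCD-fed and 1080, 2090, 1483, 1022 and 1105 in SSD-fed WT mice, all of the latter higher, and 346, 382, 789.7 and 557 in NCD-fed and 893, 944 and 1089 in SSD-fed Klrk1-/- mice. The difference was 1.92 (SE 0.20, adjusted p = 3.25e-05) in WT and 0.98 (SE 0.23, adjusted p = 0.00783) in Klrk1-/- mice. Its neighbour Cyp2c39, a retinoic acid hydroxylase with 94.2% of its coding bases, lay between 4.6 and 33.9 normalized counts and did not pass in either genotype (0.75 and 0.29). Cyp2c29, a CAR target, was -0.04 in WT and 0.74 in Klrk1-/- mice on the log2 scale, with adjusted p of 0.92 and 0.0573 by limma. Cyp2c37, Cyp2c55 and the arachidonic acid epoxygenase Cyp2c23 passed no test; Cyp2c55 was at 486.9 in SSD-fed WT mouse 1 against 58.0 to 163 in the other 4. Cyp2c65 and Cyp2c66, genes of the gut, reached at most 2.46 normalized counts.

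**Figure D4:**
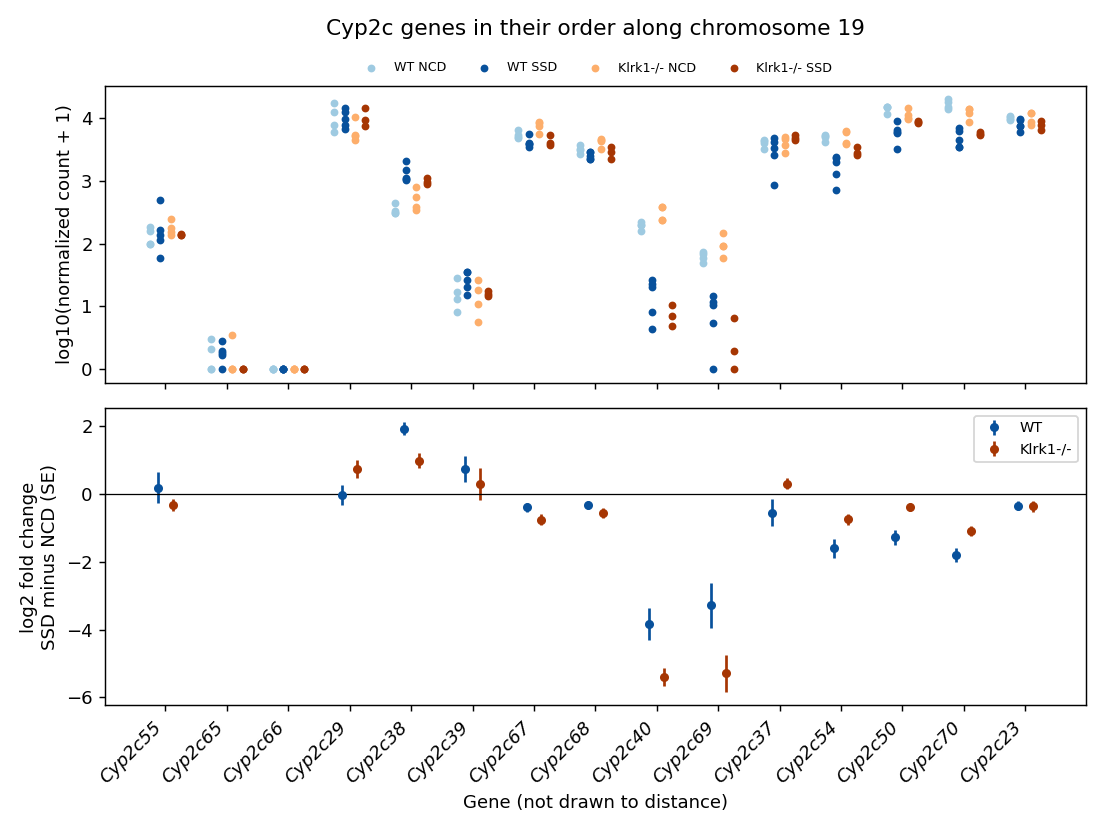
The 15 Cyp2c genes in their order on chromosome 19, not drawn to distance: above, log10(normalized count + 1) of each mouse, and below, the log2 fold change of SSD against NCD with its standard error. Cyp2c38 lies above 0 in both genotypes and Cyp2c40 and Cyp2c69 lowest, at -3.84 and -3.29 in WT mice.

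The Cyp2d genes, which oxidise basic drugs and steroids, fell or did not pass. In WT mice 4 of 7 tested fell (Cyp2d9, Cyp2d11, Cyp2d12 and Cyp2d22) and in Klrk1-/- mice 3 (Cyp2d11, Cyp2d12 and Cyp2d22). Cyp2d11 had 27.7, 43.3, 35.2 and 39.7 normalized counts on NCD and 6.64, 15.2, 9.52, 12.4 and 14.7 on SSD in WT mice, without overlap, and 37.9, 29.9, 34.8 and 19.7 on NCD and 17.4, 14.5 and 12 on SSD in Klrk1-/- mice. Its diet difference was -1.60 (SE 0.29, adjusted p = 0.00169) in WT and -0.99 (SE 0.29, adjusted p = 0.0234) in Klrk1-/- mice. Cyp2d12 had 9.65, 16.1, 35.2 and 16.6 in NCD-fed and 5.31, 5.91, 4.76, 11.6 and 2.45 in SSD-fed WT mice, which overlapped, a difference of -1.52 (SE 0.47, adjusted p = 0.025). The call was lost without NCD-fed mouse 5 (-1.55, adjusted p = 0.0505 by limma), and without NCD-fed mouse 3 the gene fell below the filter. In Klrk1-/- mice it was -2.37 (SE 0.65, adjusted p = 0.0175), and without NCD-fed mouse 1 it was below the filter.

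Both are rare copies of abundant genes: Cyp2d11 was 0.0937% to 0.174% of Cyp2d10 in NCD-fed and 0.0417% to 0.0705% in SSD-fed WT mice. Cyp2d9, the male-predominant gene of the family, had 48950, 45903, 39686 and 46093 normalized counts in NCD-fed WT mice and 10076, 28443, 35901, 29326 and 30945 in SSD-fed ones. All 5 SSD-fed mice were lower, mouse 1 far below the rest. Its difference of -0.86 (SE 0.30, adjusted p = 0.0435) became -0.54 without that mouse, with an adjusted p of 0.00347 by limma. With all mice it was -0.52 scaled to the same total (adjusted p = 0.129 by limma) and -0.34 under quantile normalization (adjusted p = 0.38 by limma). Cyp2d9 was -0.26 (SE 0.10, adjusted p = 0.0631) in Klrk1-/- mice and did not pass. Cyp2d22 changed by -0.45 (SE 0.13, adjusted p = 0.017) in WT and -0.43 (SE 0.08, adjusted p = 0.00208) in Klrk1-/- mice, without overlap between the diets; scaled to the same total it passed in neither genotype. Cyp2d10 and Cyp2d26 passed no test, and Cyp2d34 was below the filter at no more than 1.24 normalized counts. Cyp2d40 was lower in Klrk1-/- mice on NCD, by -0.38 (SE 0.11, adjusted p = 0.0415), which passed in 14 of 21 fits.

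Among the single-gene subfamilies, the periportal Cyp2f2 fell on SSD and was lower in Klrk1-/- mice on NCD. It had 48261, 47284, 42535 and 40837 normalized counts in NCD-fed and 12447, 23899, 31908, 25422 and 35472 in SSD-fed WT mice, and 32061, 30890, 25244 and 32745 in NCD-fed and 24271, 23052 and 24692 in SSD-fed Klrk1-/- mice. All 4 NCD-fed Klrk1-/- mice were below all 4 NCD-fed WT mice. The differences were -0.87 (SE 0.25, adjusted p = 0.0179) by diet in WT mice, -0.33 (SE 0.11, adjusted p = 0.0374) by diet in Klrk1-/- mice and -0.57 (SE 0.11, adjusted p = 0.0083) by genotype on NCD. Scaled to the same total, neither diet difference passed.

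Cyp2e1 did not change with diet in either genotype by the adjusted p. It was -0.22 (adjusted p = 0.316 by limma) in WT and 0.25 (adjusted p = 0.225) in Klrk1-/- mice. On SSD the 3 Klrk1-/- mice, at 115835, 118332 and 117647 normalized counts, were above the 5 WT mice, at 65762, 86632, 97762, 62191 and 71033, and the log2 difference of 0.63 (SE 0.18, adjusted p = 0.0821) did not pass.

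Several enzymes of lipids and vitamin D made in the body differed between the diets. Cyp2u1, a long-chain fatty acid hydroxylase, fell from 1605, 1519, 1455 and 1932 to 361, 853, 891, 726 and 843 normalized counts in WT and from 1479, 1467, 1608 and 1764 to 708, 676 and 614 in Klrk1-/- mice. The diets did not overlap, and the differences were -1.21 (SE 0.23, adjusted p = 0.00197) and -1.24 (SE 0.09, adjusted p = 2.57e-06); in WT mice it was -0.97 and not called without SSD-fed mouse 1. Scaled to the same total, Cyp2u1 passed the adjusted p but was called in neither genotype (-0.863 in WT mice). Cyp2r1, the vitamin D 25-hydroxylase, changed by -0.82 (SE 0.15, adjusted p = 0.00141) in WT and -0.63 (SE 0.11, adjusted p = 0.00144) in Klrk1-/- mice, from 272 to 426 normalized counts in NCD-fed WT mice to 150.1 to 201 in SSD-fed ones. The arachidonic acid epoxygenase Cyp2j5 changed by -0.40 (SE 0.13, adjusted p = 0.0291) and -0.28 (SE 0.09, adjusted p = 0.0293), and Cyp2j6 by -0.58 (SE 0.08, adjusted p = 0.000339) and -0.79 (SE 0.09, adjusted p = 6.44e-05). Scaled to the same total, Cyp2j5 passed in neither genotype.

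Cyp2j9 did not pass between the diets in WT mice, with a difference of 0.45 (SE 0.32, adjusted p = 0.297), where mouse 1 had 134 normalized counts and the other 4 SSD-fed mice had at least 387.8; without it the difference was 0.79, with an adjusted p of 0.000868 by limma. Without it the genotype difference on SSD was 0.51 (adjusted p = 0.0388 by limma), against 0.84 (SE 0.36, adjusted p = 0.204) with it. On NCD Cyp2j9 was higher in Klrk1-/- mice, by 0.83 (SE 0.21, adjusted p = 0.0259), which passed in 13 of 21 fits. Cyp2g1, a gene of the olfactory mucosa, was tested in Klrk1-/- mice alone among the diet comparisons and fell there, from 19.5, 16.2, 29.9 and 22.1 to 9.66, 12.1 and 6 normalized counts, with a log2 difference of -1.18 (SE 0.34, adjusted p = 0.0222). The call was lost without NCD-fed mouse 3 (-1.02), SSD-fed mouse 1 (-1.23) or SSD-fed mouse 3 (-0.93), and when scaled to the same total. Cyp2s1 passed no test, and Cyp2ab1, Cyp2t4, Cyp2w1, Cyp2j7, Cyp2j8, Cyp2j11, Cyp2j12 and Cyp2j13 did not reach the filter.

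The Cyp3a genes carry most oxidation of drugs in liver, and none of the 4 tested changed with diet in WT mice. In Klrk1-/- mice Cyp3a11 and Cyp3a59 rose. Cyp3a11, the main PXR target, spread widely, at 210296, 142819, 62373 and 89601 normalized counts in NCD-fed WT mice, 171694, 99768, 108056, 131130 and 112565 in SSD-fed WT mice, 100799, 79310, 81780 and 126066 in NCD-fed and 191176, 142577 and 149325 in SSD-fed Klrk1-/- mice. The range of the NCD-fed WT mice held all 5 SSD-fed ones. The difference was 0.10 (SE 0.31, adjusted p = 0.821) in WT and 0.74 (SE 0.18, adjusted p = 0.00849) in Klrk1-/- mice, and the interaction, 0.64 (SE 0.41, adjusted p = 0.435), did not pass.

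On SSD Cyp3a25 and Cyp3a59 were higher in Klrk1-/- than in WT mice. Cyp3a25 had 9916, 15109, 14103, 13791 and 11676 normalized counts in SSD-fed WT mice and 25396, 18583 and 25083 in SSD-fed Klrk1-/- mice. Cyp3a59 had 1259, 1011, 797, 938 and 618 in SSD-fed WT mice and 2631, 1303 and 2176 in SSD-fed Klrk1-/- mice. The genotypes did not overlap for either gene on SSD. They differed by 0.83 (SE 0.16, adjusted p = 0.0273) for Cyp3a25 and 1.12 (SE 0.25, adjusted p = 0.044) for Cyp3a59, and the call of Cyp3a59 held in 2 of 8 fits that left out a mouse (1.24 without SSD-fed WT mouse 1 and 1.41 without SSD-fed Klrk1-/- mouse 2), with a lowest value of 0.90. On NCD the differences were 0.41 (SE 0.14, adjusted p = 0.0733) and 0.52 (SE 0.24, adjusted p = 0.155) and did not pass, and neither did the interactions (0.347 and 0.439, adjusted p by limma). The diet difference of Cyp3a59 in Klrk1-/- mice was 0.95 (SE 0.26, adjusted p = 0.0172).

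Cyp3a25 and Cyp3a59 differ at 38 of 1512 coding bases (97.5% identity), and 6.1% of the 100-base windows of each occur in the other. Exon 5 of 13 of both holds this pair, at chr5:145931699-145931788 (minus strand) and chr5:146031157-146031246 (plus strand) of GRCm39, with the 6 differing bases in capitals.
Cyp3a25: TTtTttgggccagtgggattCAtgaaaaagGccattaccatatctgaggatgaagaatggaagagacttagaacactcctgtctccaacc
Cyp3a59: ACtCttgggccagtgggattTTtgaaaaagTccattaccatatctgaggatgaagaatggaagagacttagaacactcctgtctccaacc
Cyp3a59 was 5.29% to 12.7% of Cyp3a25 in SSD-fed WT and 7.01% to 10.4% in SSD-fed Klrk1-/- mice. Cyp3a13 passed no test. Cyp3a16, Cyp3a41a, Cyp3a41b, Cyp3a44 and Cyp3a57 were below the filter; Cyp3a41a and Cyp3a41b differ at 2 of 1515 coding bases and shared 90.8% and 88.2% of their 100-base windows with another gene, so most of their reads cannot be told apart.

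**Figure D5:**
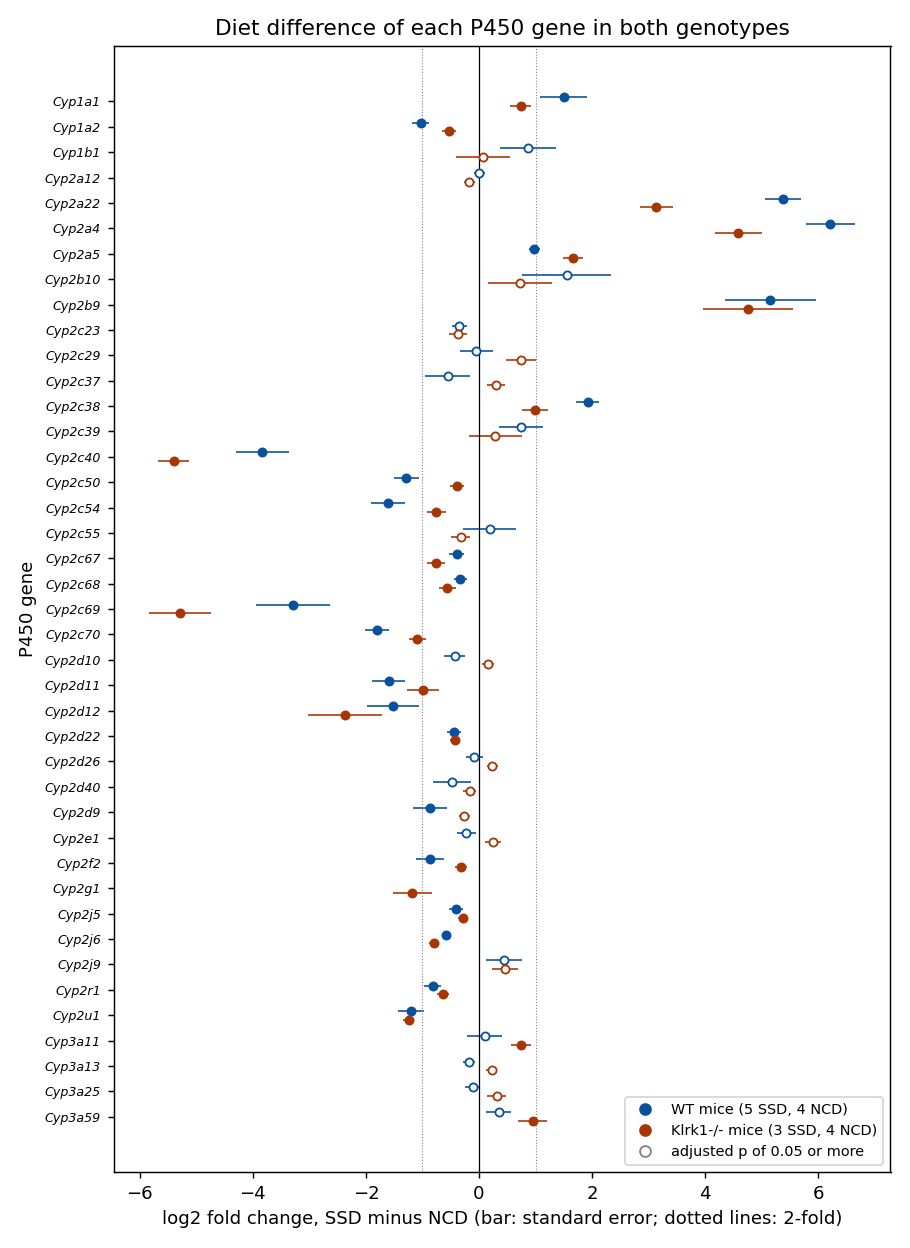
Log2 fold change of SSD against NCD (points) with its standard error (bars) for the 41 P450 genes with a mean of at least 10 over all 16 mice, where tested, in WT mice (blue) and Klrk1-/- mice (brown); open points have an adjusted p of 0.05 or more and dotted lines mark 2-fold. Cyp2a4, Cyp2a22 and Cyp2b9 lie farthest right and Cyp2c40 and Cyp2c69 farthest left in both genotypes.

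Grouped by known sex bias, receptor or zone, the genes split as follows. Of the 9 female-predominant genes 4 were tested in the diet comparisons, and in both genotypes Cyp2a4 and Cyp2b9 rose while Cyp2c40 and Cyp2c69 fell. The other 5 (Cyp2b13, Cyp3a16, Cyp3a41a, Cyp3a41b and Cyp3a44) lay below the filter. Of 7 genes listed as CAR targets and tested in WT mice Cyp2b9 rose, Cyp2c50 and Cyp2c54 fell and 4, with Cyp2b10 among them, did not pass. None of 3 PXR targets passed. In Klrk1-/- mice the same 3 CAR targets passed in the same directions, and of the PXR targets Cyp3a11 rose. On SSD the PXR target Cyp3a25 was higher in Klrk1-/- than in WT mice. In each direction 13.4% to 17.6% of all genes passed between the diets. Of 9 pericentral P450 genes 2 rose (Cyp2a5 and Cyp2c38) and 3 fell (Cyp1a2, Cyp2c50 and Cyp2c54) in WT mice, and in Klrk1-/- mice Cyp3a11 rose besides.

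Among the partners of the P450 enzymes, Por, which feeds them electrons, rose in both genotypes. It was 3649 ± 438 (SD, n = 4) normalized counts in NCD-fed and 7058 ± 746 (SD, n = 5) in SSD-fed WT mice, and 3264 ± 109 (SD, n = 4) and 10588 ± 360.3 (SD, n = 3) in Klrk1-/- mice. The log2 difference was 0.95 (SE 0.11, adjusted p = 5.39e-05 by limma) in WT and 1.70 (SE 0.07, adjusted p = 3.33e-08 by limma) in Klrk1-/- mice, and the interaction of 0.745 passed (adjusted p = 0.0156 by limma). Cyb5r3, the cytochrome b5 reductase, fell in both genotypes, with SSD-fed means of 6839 and 6123 normalized counts against 15287 and 15739 on NCD. In the haem pathway Hmox1, which breaks haem down, rose by 1.26 and 0.66, and Alas1, its first enzyme of synthesis, was lower in Klrk1-/- mice on NCD, by -1.54 (adjusted p = 0.0138 by limma). Of the 9 partner genes 2 rose and 3 fell in WT mice (17.3% and 17.6% of all genes did), and 4 rose and 2 fell in Klrk1-/- mice (13.4% and 16% of all genes did). Between the genotypes, by the adjusted p, 1 was higher and 2 were lower in Klrk1-/- mice on NCD (6.41% and 6.66% of all genes were). On SSD 2 were higher and 1 was lower (1.22% and 1.68% of all genes were).

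Among 20 tested regulators 5 rose and 6 fell in WT mice, beside 17.3% and 17.6% of all genes, and 4 rose and 2 fell in Klrk1-/- mice, beside 13.4% and 16% of all genes. Nothing is read from the counts of these lists, which are small. CAR (Nr1i3) rose in Klrk1-/- mice by 0.88 (adjusted p = 0.00623 by limma), and PXR (Nr1i2) rose in WT mice by 0.43 (adjusted p = 0.00413). Nr0b2, the corepressor SHP, rose by 1.19 in WT mice and was higher in Klrk1-/- than WT mice on NCD by 1.95 (adjusted p = 7.64e-06 by limma). Onecut1, a hepatocyte factor, fell by 2.73 in WT mice. Among 14 targets of CAR and PXR outside these families, which include Por and Alas1, 8 rose and 1 fell in WT mice and 9 rose and 1 fell in Klrk1-/- mice, and the median differences were 0.87 and 0.81 on the log2 scale. Of 4 tested AHR targets outside these families 1 rose in WT mice and 3 in Klrk1-/- mice, and none fell. Their median differences were -0.041 and 0.303 on the log2 scale. Nqo1 among them rose by 1.22 and 1.36.

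Among the growth hormone axis and sex-biased liver genes 7 of 13 tested fell and 2 rose in WT mice, and 8 of 14 fell in Klrk1-/- mice, where 17.6% and 16% of all genes fell. Mup7 changed by -5.65 and -5.78, and Cyp7b1, the male-predominant oxysterol hydroxylase, by -2.28 and -1.11. Of 9 pericentral genes outside the P450 families 5 fell in each genotype and none rose in WT mice, while Tbx3 rose in Klrk1-/- mice. Of 8 periportal genes 7 fell in each genotype. Beside these lists, 5 of 8 hepatocyte markers fell in WT and 6 in Klrk1-/- mice, and none rose. Cps1 and Ass1 are in both the hepatocyte and the periportal list. In WT and Klrk1-/- mice 5 and 2 of 8 macrophage markers rose, and 4 and 3 of 7 stellate cell and fibroblast markers. Of 6 endothelial markers 5 and 2 rose. Of all genes 17.3% and 13.4% rose. The part of these genes and cell types in the P450 results was not tested.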

How the data were processed

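Whole-liver RNA of 16 mice was sequenced as single reads of 100 bases. Per the labels and the study's methods, the authors used FastQC for read quality, STAR for alignment to the GRCm39 genome, and FeatureCounts to count reads per gene. The labels name an mRNA library kit and the methods a total RNA kit. The authors deposited normalized counts, a signal unit in which whole reads of a library are divided by 1 factor; how the factors were made is not given in the sources used here. Dividing by that factor's step gave whole reads for 100.0% of values (tolerance 0.05), 19892025 to 28936707 per mouse. The deposited GC fraction and gene length in bases are the authors' annotation; the length gave the level per kb.

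Genes averaging at least 10 normalized counts in the mice that entered a fit were tested with limma 3.58.1 (R 4.3.3; trended variance) on log2(normalized count + 1), with Benjamini-Hochberg adjustment over all genes tested. Only the groups compared entered a fit, and the interaction used all 16 mice. A call needs an adjusted p under 0.05 and a change over 2-fold. Fits were tested on simulated data with 200 changed genes. The alternatives were other scalings, edgeR 4.0.16 and DESeq2 1.42.0 on recovered reads, other pseudocounts, filters and fold limits, a replicate block, and leaving out each mouse.

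Members and gene lists were chosen with earlier results of these data known. The members named are those called without overlap (the 12 largest changes per comparison) and the 10 highest per kb. A list of well-studied members and those against their subfamily were added. Of the list genes past the adjusted p only some are named. Further members were named after their values were seen, to account for all 61. Shared windows and coding sequences came from the canonical transcripts of GENCODE vM39 on GRCm39, and promoters from RefSeq (GRCm38.p6).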

Additional observations from a re-analysis of the deposited data

Results flagged for a closer look

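In groups of 4 or 5 mice, a mouse was noted when its gap to the nearest other was large against the range of its group (Dixon's 95% value). This held for 13 of 123 groups of tested P450 genes, and 6 of the 13 were SSD-fed WT mouse 1. The rule flags about 1 in 20 independent groups, but these groups are genes of the same mice. The share flagged over all genes was not worked out, so nothing particular to P450 genes is read from the count. SSD-fed WT mouse 1 had the highest stellate cell and macrophage marker sums. It was the lowest of its group for 28.3% of all genes and the highest for 32.5%. In that mouse the low values, in normalized counts, were 12269 for Cyp2d10 (others 21175 to 24904), 4294 for Cyp2d22 (others 6092 to 6950), 10076 for Cyp2d9 (others 28443 to 35901), 134.2 for Cyp2j9 (others 387.8 to 466.4), 150.1 for Cyp2r1 (others 192.6 to 200.8) and 360.7 for Cyp2u1 (others 725.8 to 890.8). The part of its other cell types in these values was not tested.

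In NCD-fed Klrk1-/- mice, mouse 4 was high for Cyp2a5 at 6352 (others 3921 to 4055) and Cyp2d26 at 24638 (others 20051 to 20756), and mouse 2 was low for Cyp2a4 at 7.466 (others 28.6 to 35.67). In NCD-fed WT mice, mouse 3 was low for Cyp2a22 at 5.214 (others 9.931 to 11.08), mouse 2 high for Cyp2c38 at 449.0 (others 307.6 to 325.6) and mouse 5 low for Cyp2c50 at 11623 (others 14837 to 15037). SSD-fed WT mouse 5 was high for Cyp2c67 at 5589 (others 3479 to 3985).

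The diet difference of Cyp2a22 differed between the genotypes by -2.246 on the log2 scale in the interaction test.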

How the results depend on the processing

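The count of called P450 genes between the diets in WT mice (14) became 9 with a minimum mean of 50 and 23 with no fold limit, and 12 to 16 without single mice. In Klrk1-/- mice (10) it became 19 at a fold limit of 1.5, 25 with no fold limit and 9 to 13 without single mice. Between the genotypes on SSD (1) it was 0 under scaling to the same total, quantile normalization, a pseudocount of 10, no variance trend, a robust trend and the replicate block, 3 at a fold limit of 1.5 or none, and 0 to 1 without single mice. On NCD (3) it was 1 with a pseudocount of 10, 0 with a minimum mean of 50, 5 at a fold limit of 1.5, 8 with no fold limit and 1 to 3 without single mice. It was 2 on NCD, with Cyp1a1 lost, under scaling to the same total, quantile normalization, edgeR and DESeq2. The same held with no minimum mean, no variance trend and all 4 groups in 1 model. The interaction (1) gave 0 under quantile normalization, edgeR, a pseudocount of 10, no minimum mean, no variance trend and the replicate block. It gave 2 under DESeq2, with Cyp2c40 added, and 0 to 1 without single mice. The cause of these moves was not tested, apart from filters and fold limits, which change the genes that can be called. Cyp2c68 in WT mice turned from -0.33 to 0.02 (0.017) when every library was scaled to the same total. Over 60 gene results the alternatives kept the direction and an adjusted p under 0.05 in 991 cases, lost the adjusted p in 199 and turned the direction in 1, and 29 of the 60 never lost either. Whether replicate numbers pair the mice was not settled: correlations of same-numbered mice ran from -0.146 to 0.237. The same-numbered mouse was the most correlated partner for mice 1 and 2 between the diets in Klrk1-/- mice (0.153 and 0.103). It was so for mice 1 and 3 between the genotypes on SSD (0.151 and 0.237), and for none in the other comparisons. With the replicate block, the pairing fit, the calls were 13 in WT mice, 12 in Klrk1-/- mice, 0 on SSD, 3 on NCD and 0 for the interaction. In each diet and genotype comparison that fit kept only mice whose number occurs in both groups. Over all genes on SSD it called 332, against 151 in the main fit. It lost Cyp1a1 in WT mice, Cyp2g1 in Klrk1-/- mice and Cyp2a22 on NCD, and added Cyp2c29, Cyp2c38 and Cyp2d11 in Klrk1-/- mice and Cyp2c29 (lower) on NCD. Genes with a mean under 10 normalized counts were not tested, and near copies share reads.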
